A study of Ovis aries with 36 samples.

Results

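The comparison of 2 hindlimb muscles, gluteus medius (GM) and rectus femoris (RF), used 8 of the 36 RNA-Seq samples of a study of 9 lamb muscles. Its members were chosen by sample title, GM1 to GM4 and RF1 to RF4, and each number stands for 1 animal that gave both muscles. The animals were 4 unrelated Poll Dorset cross-bred lambs of 14 months, taken from different flocks, grazed and given a supplement after weaning, with no treatment that set the muscles apart. Tissue came from the superficial middle part of each muscle belly shortly after slaughter, so 1 region stands for the whole muscle. The other muscles were semimembranosus (SM), semitendinosus (ST), cranial gluteobiceps (GB), adductor (AD), psoas major (PM), longissimus lumborum (LL) and, in the shoulder, supraspinatus (SS). All 36 samples entered 1 model with muscle and animal, from which the contrast of GM and RF was taken.

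The gluteus medius is a broad gluteal muscle that extends and abducts the hip, whereas the rectus femoris is the head of the quadriceps that crosses both hip and knee, flexing the first and extending the second. Skeletal muscles are mosaics of slow oxidative and fast fibers that express different forms of the same sarcomere and calcium-handling proteins. Muscles also keep a record of where in the body they formed, in part through HOX genes, which encode transcription factors that set position along the body and limb axes. Both aspects could be read only in part, from the few loci with a gene name, whereas most loci in the files carry only an Ensembl or assembly identifier.

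Differential expression was limited to 47 of the 12461 loci tested, 0.377% of them. The threshold was a false discovery rate (FDR) of at most 0.01 with an absolute log2 fold change (log2FC, GM over RF) above 1, tested by quasi-likelihood in edgeR and adjusted by Benjamini-Hochberg. Of these differentially expressed genes (DEG), 29 were higher in GM (0.233% of the loci tested) and 18 higher in RF (0.144%). The size of the difference had a median log2FC of 2.35 in the first group, with a range of 1.17 to 4.75, and a median of -1.38 in the second, with a range of -3.80 to -1.03. The median log2FC over all loci tested was 0.018. At an FDR of at most 0.05 without a fold threshold, 113 loci were higher in GM (0.907%) and 74 in RF (0.594%). Each of the 29 and 18 DEG had the same direction in 4 of 4 animals, against 11.4% and 9.56% of all loci. In 21 of the 29, all 4 GM samples were above all 4 RF samples, which held for 2.71% of all loci, and in 12 of the 18 the reverse was true, against 2.34%. Most DEG had few reads, and 27 of the 47 had an average below 10 CPM (reads of a locus relative to the sample's library size after TMM scaling) even in the muscle where they were higher. The count of DEG was lower with 1 animal left out, at 41 without animal 1, 20 without animal 2, 15 without animal 3 and 19 without animal 4, and it was 6 when animal was not in the model.

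**Figure D1:**
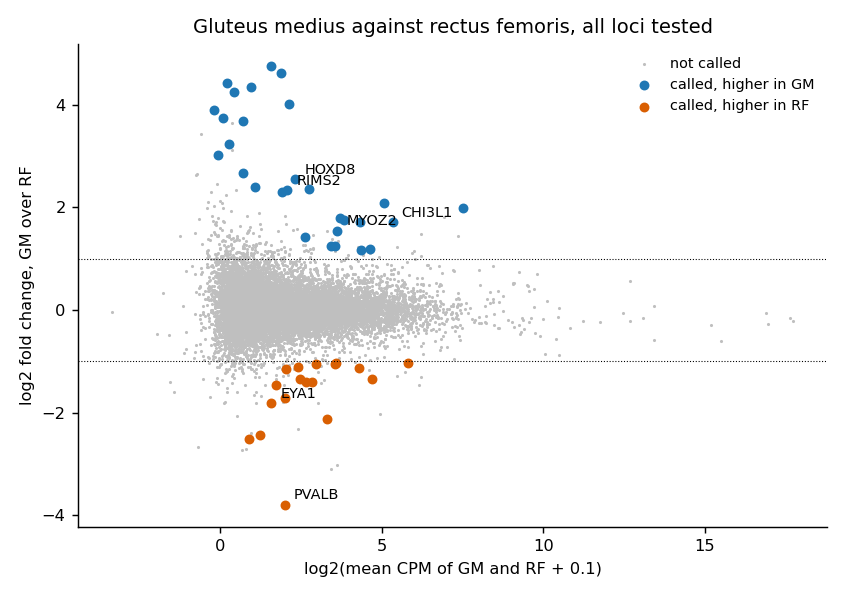
Each point is 1 of the 12461 loci tested, with the mean level of GM and RF (log2 of CPM plus 0.1) on the x axis and the log2 fold change of GM over RF on the y axis, and dotted lines at the fold threshold. Blue points mark the 29 DEG higher in GM and orange points the 18 higher in RF, and most of the points with a large fold change lie at low CPM.

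Samples held 4018634 to 6350738 counts in GM and 5256304 to 6304546 in RF. Between 65.7% and 72.6% of the counts fell on 4 short unannotated loci, which leaves 1102272 to 2151731 counts per sample for all others. A locus with 3 counts, the least treated here as detection, has 0.365 to 0.854 CPM in GM and 0.437 to 0.591 CPM in RF, a floor for counting error only. Genes of muscle fibers were expressed in all 8 samples, with 56.8 to 159 CPM for TNNT1 (slow troponin T) and 115 to 298 CPM for ATP2A2, the calcium pump of slow fibers and heart. The files carry no symbols, and the markers of fat, connective tissue, vessels, nerve and blood cells could not be paired with loci, so the part of other cell types in these results was not tested. In tissue samples, fewer cells of a type and less RNA per cell cannot be told apart.

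The genes that could be named among the DEG fall into 3 groups, which are positional and developmental regulators (HOXD8 and EYA1), muscle proteins (MYOZ2 and PVALB) and genes of secretion (RIMS2 and CHI3L1). HOXD8, RIMS2, CHI3L1 and MYOZ2 were higher in GM, whereas PVALB and EYA1 were higher in RF. For MYOZ2 the study's primer pair is shown, because it marks the exons of the transcript that a repeat measurement would read. It joins exons 4 and 5 in a product of 142 bases, is written in lower case throughout, and results of that assay were not analysed here.
MYOZ2 forward: accacggttactgagatggg
MYOZ2 reverse: ggtgaagcagaggaaagagc

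HOXD8 (ENSOARG00000017491, chr2:132873609-132877353 of Oar_v3.1), a homeobox transcription factor of the HOXD cluster, had 9.11, 6.12, 9.42 and 9.36 CPM in GM of animals 1 to 4. In RF of the same animals it had 0.788, 1.16, 2.99 and 0.726 CPM. All GM samples were above all RF samples, and the RF of animal 3 was the highest of its muscle. The difference was a log2FC of 2.55 (SE 0.39 of the 4 within-animal differences, FDR = 3.8e-06 in the same test). Its call held with each animal left out in turn, with a log2FC between 2.29 and 3.06.

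Loci beside HOXD8 were compared next. Within 50 kb on either side, 5 loci were tested, HOXD8 included, and all 5 were higher in GM in 4 of 4 animals. Besides HOXD8, 1 more was a DEG, an Ensembl locus that begins 5.46 kb beyond the end of HOXD8 (chr2:132882816-132884329), with 41 counts summed over the GM samples and 4 over the RF samples (log2FC 3.02, FDR = 0.0091). Its levels were 1.99, 0.896, 1.98 and 1.46 CPM in GM of animals 1 to 4 and 0, 0.291, 0.333 and 0 CPM in RF. With so few counts in RF, its fitted log2FC depends on the small count that edgeR adds, and its call was lost without any 1 of the animals, at an FDR of 0.052, 0.027, 0.062 and 0.11 without animals 1, 2, 3 and 4. On the other side of HOXD8, a locus joining a pair of Ensembl genes (chr2:132836522-132857578) had a log2FC of 1.88 (SE 0.54, FDR = 0.011), and an unannotated locus beside it (chr2:132857691-132859593) a log2FC of 1.40 (SE 0.083, FDR = 0.030). The remaining unannotated locus (chr2:132860297-132870909) had a log2FC of 1.20 (SE 0.31) and did not pass either threshold (FDR = 0.20).

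The only other HOX gene that could be named, HOXC10 (chr3:132378062-132383225), from the HOXC cluster on another chromosome, had 2.28, 1.79, 1.86 and 2.43 CPM in GM and 4.53, 3.35, 1.5 and 3.45 CPM in RF. Its levels overlapped between the muscles, and the difference was not significant (log2FC -0.58, SE 0.26, FDR = 0.42).

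EYA1 (ENSOARG00000004513, chr9:47588481-47960610), a transcriptional coactivator that acts with homeobox partners in muscle formation and in the fast fiber program, had 1.14, 1.05, 0.991 and 2.07 CPM in GM and 3.55, 4.22, 4.82 and 5.44 CPM in RF. Animal 4 had the highest level in each muscle, and the groups did not overlap. The log2FC was -1.82 (SE 0.16, FDR = 0.0015), and the FDR was 0.019, 0.047 and 0.037 without animals 2, 3 and 4. SIM2 (chr1:267018135-267070595), a basic helix-loop-helix factor, had 3.13, 1.94, 1.86 and 0.972 CPM in GM and 1.38, 0.291, 0.665 and 0.544 CPM in RF. This gene was higher in GM in 4 of 4 animals, with a log2FC of 1.44 (SE 0.26) that met only the FDR of 0.05 (FDR = 0.047). An unannotated locus that ends 16.9 kb from SIM2 (chr1:266994223-267001200) was a DEG, with 5.41, 2.69, 4.34 and 1.34 CPM in GM and 0.591, 0.291, 0.998 and 0.544 CPM in RF (log2FC 2.39, SE 0.37, FDR = 0.0039). Its GM samples were all above its RF samples, and its FDR was 0.069, 0.013, 0.047 and 0.011 without animals 1, 2, 3 and 4.

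MYOZ2 (ENSOARG00000016717, chr6:6264895-6303407) encodes calsarcin-1, a Z-disc protein of slow fibers that binds calcineurin. Its levels in GM were 21.3, 15.2, 28.0 and 9.72 CPM, and its levels in RF 4.93, 5.67, 5.32 and 7.80 CPM. The RF samples lay close together whereas GM spread widely, and animal 4 had both the lowest GM and the highest RF. The log2FC was 1.55 (SE 0.45, FDR = 0.0013). Its FDR was 0.021, 0.019 and 0.070 without animals 1, 2 and 3 and 3.5e-04 without animal 4.

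PVALB (ENSOARG00000019026, chr3:180006084-180067626) encodes parvalbumin, a cytosolic calcium buffer of fast fibers, and had the largest difference of the DEG higher in RF. It had 14.6, 8.15, 3.16 and 3.27 CPM in RF and 1.14, 0.299, 0.619 and 0 CPM in GM. In counts these were 74, 56, 19 and 18 against 4, 2, 5 and 0, so that GM was near the floor of 3 counts in each animal. The fitted log2FC was -3.80 (SE 0.41, FDR = 4.3e-05), and it lay between -4.42 and -3.50 with each animal left out, always as a DEG.

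RIMS2 (ENSOARG00000015979, chr9:72976729-73464816), a scaffold protein of regulated exocytosis at synapses, had 8.54, 3.88, 6.57 and 8.63 CPM in GM and 2.56, 1.16, 0.499 and 1.27 CPM in RF. The groups did not overlap (log2FC 2.34, SE 0.37, FDR = 1.7e-04), and the FDR was 0.015 without animal 3 and 0.011 without animal 4. CHI3L1, a secreted chitinase-like glycoprotein, was paired with a locus that joins 2 Ensembl genes (chr12:344371-366834), so its value is uncertain. That locus had 86.8, 38.2, 70.1 and 46.4 CPM in GM and 49.1, 7.13, 14.1 and 11.1 CPM in RF. The RF of animal 1 was above the GM of animals 2 and 4, yet each animal had more in its GM (log2FC 1.71, SE 0.36, FDR = 0.0013). The FDR was 0.038, 0.042 and 0.052 without animals 2, 3 and 4, and 0.17 when animal was not in the model.

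**Figure D2:**
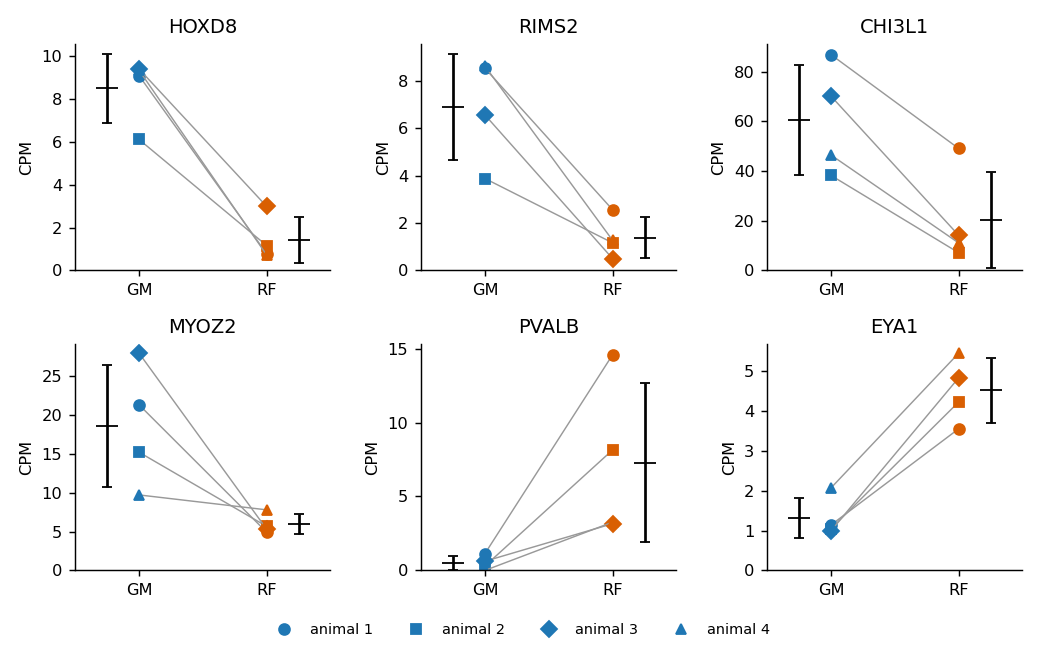
Each panel shows the CPM of 1 of the 6 named DEG in GM (blue) and RF (orange), with a marker per animal, a gray line joining the muscles of that animal, and a black bar for the mean ± SD of 4 animals. All lines fall from GM to RF for HOXD8, RIMS2, CHI3L1 and MYOZ2, and all rise for PVALB and EYA1.

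Few of the slow fiber genes passed the test between the muscles. Of the 18 genes listed as slow sarcomere genes, 7 could be paired with a locus, and 2 of these 7 were higher in GM at an FDR of at most 0.05, MYOZ2 and TPM3, while 5 did not pass, against 0.907% of all loci higher in GM. The median log2FC of the 7 was 0.49, beside 0.018 for all loci tested. These genes were named by the study for contrasts among the same samples, so that the list is not independent evidence. The count of 2 became 1 without animal 1 or animal 2, 0 without animal 3, and 0 when animal was not in the model. TPM3 (chr1:103039221-103067829), which encodes slow tropomyosin and shares its span with another assembled locus, had 87.7, 92.4, 142 and 71.0 CPM in GM and 24.6, 34.6, 49.7 and 89.3 CPM in RF. Its GM was higher in animals 1, 2 and 3 and lower in animal 4, with a log2FC of 1.04 (SE 0.48, FDR = 0.021). The 3 slow troponins had log2FC of 0.52 (TNNT1, SE 0.43), 0.49 (TNNC1, SE 0.54) and 0.092 (TNNI1, SE 0.52), with an FDR of 0.51, 0.56 and 0.96. MYL3, the slow essential light chain, had a log2FC of 0.29 (SE 0.51, FDR = 0.78) and MYOM3, an M-band protein, a log2FC of -0.47 (SE 0.36, FDR = 0.66). TNNI1 shares its span with other assembled loci, which could divide its reads. MYH7B and MYL2, also listed, each had 2 Ensembl loci at their position, so these names are not assigned. Those at MYH7B had a log2FC of 1.03 (SE 0.46, FDR = 0.24), higher in GM in 4 of 4 animals, and -0.26 (SE 0.10, FDR = 0.57). Those at MYL2 had 1.02 (SE 0.43, FDR = 0.065) and 0.83 (SE 0.57, FDR = 0.27), both lower in GM in animal 4. MYBPC1, also listed and also not assigned, went the other way. The Ensembl locus at its position was higher in RF in 4 of 4 animals (log2FC -0.86, SE 0.17, FDR = 0.0084).

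Animals differed in the direction of the 7 paired slow sarcomere genes. Together with ATP2A2 and CASQ2, the calsequestrin of slow fibers and heart, 9 genes were followed within animals. In animals 1, 2 and 3, 8 of the 9 were higher in GM, with a median difference of 1.14, 0.84 and 0.48 in log2 CPM. In animal 4 only MYOZ2 and CASQ2 were higher in GM, 2 of the 9, by 0.31 and 0.0067, and the median difference was -1.04. Over all loci tested, 49.9%, 51.1%, 51.8% and 52.6% were higher in GM in animals 1 to 4. Among the 7 slow sarcomere genes, 4 were higher in GM in animals 1, 2 and 3 and lower in animal 4, a pattern of 5.99% of all loci. That pattern was taken from the values of these same genes, so its share is a description only. The genes were read in the same pair of samples of each animal and are not separate observations. ATP2A2 had 199, 198, 283 and 118 CPM in GM and 115, 169, 263 and 298 CPM in RF, so that its lowest GM and highest RF were both those of animal 4, and its log2FC was -0.069 (SE 0.45, FDR = 0.96). Without animal 4 the log2FC of ATP2A2 was 0.34 (FDR = 0.73), and TPM3 became a DEG (log2FC 1.55, FDR = 3.2e-04), whereas the 3 troponins still did not pass (FDR = 0.14 for TNNT1, 0.15 for TNNC1 and 0.64 for TNNI1). CASQ2 had a log2FC of 0.56 (SE 0.30, FDR = 0.46) over the 4 animals.

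**Figure D3:**
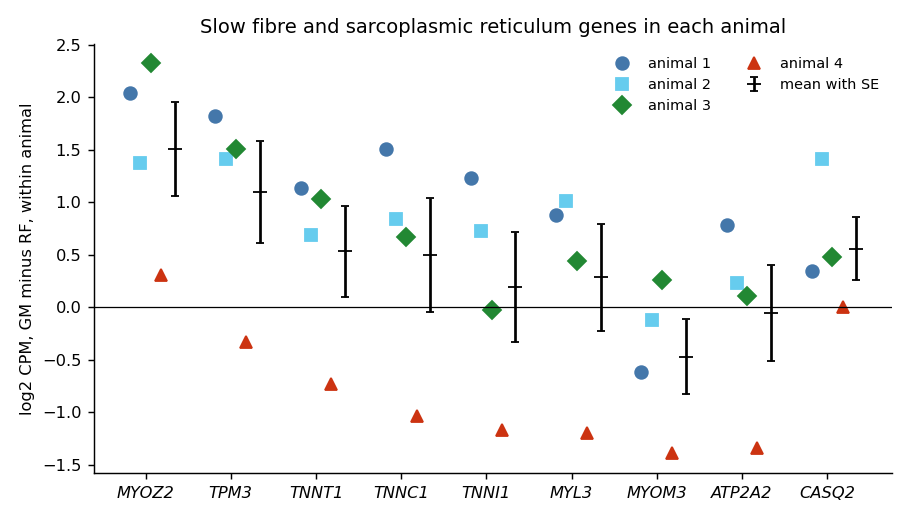
Each marker is the difference in log2 CPM between GM and RF of 1 animal, for 9 genes of slow fibers and of the sarcoplasmic reticulum on the x axis, with a black bar for the mean and SE of 4 animals. Animal 4 (red triangles) has the lowest difference in each of the 9 genes, below 0 in 7 of them.

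Of the 19 genes listed as fast sarcomere genes, 0 could be paired with a locus, so that side of the fiber types was not tested. Beyond sarcomere genes, the lists had few members that could be named. Calcium handling had 3 of 25, with PVALB as its only DEG. The list of oxidative regulators had 2 of 36, EYA1 and METTL21C. EYA1, described above as part of the fast fiber program, was its only DEG and was higher in RF. METTL21C, a lysine methyltransferase of slow muscle, had 6.43 ± 5.67 CPM in GM and 1.5 ± 0.609 CPM in RF (SD, n = 4). It did not pass (log2FC 1.83, FDR = 0.24, but 1.3e-07 when low loci were not filtered). Among ion transport genes, KCNMA1 (chr25:32480589-33017828), a calcium-activated potassium channel, had 9.11, 11.3, 12 and 10.7 CPM in GM and 17.1, 16.7, 14.0 and 16.7 CPM in RF, without overlap. Its log2FC of -0.56 (SE 0.14, FDR = 0.049) was small, and it shares its span with other assembled loci. From glycolysis and glycogen metabolism only PPP1R3D, which targets a phosphatase to glycogen, was paired, of 43 genes (log2FC 0.60, FDR = 0.24). SMYD2, another lysine methyltransferase, had a log2FC of 0.54 (FDR = 0.10). Of the 30 genes named by the study that could be paired, 6 were higher in GM and 3 in RF at an FDR of at most 0.05, beside 0.907% and 0.594% of all loci, and 21 did not pass. The study picked these genes for differences among the same samples, so the count is not independent evidence.

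Of the 47 DEG, 8 lay in a cluster of unannotated loci on chromosome 3. One locus of the cluster, XLOC_021981 (chr3:138839190-138842956), has the position of an unannotated transcript that the study listed as higher in SM than in SS. Within 50 kb on either side of XLOC_021981, 10 loci were tested, that locus included. Of these, 8 were DEG and higher in GM (against 0.233% of all loci, in a region chosen after its values were seen). The 8 lay from chr3:138819344 to 138849249, a span of 29.9 kb, and each was 1358 to 5173 bases long. No Ensembl gene was among the tested loci there. The summed level of the 8 was 7.68, 38.2, 51.3 and 11.1 CPM in GM of animals 1 to 4 and 0.394, 2.76, 3.66 and 0.363 CPM in RF. In each animal GM was higher, and animals 2 and 3 had more than animals 1 and 4 in both muscles. Over the whole cluster, 788 counts were found in GM and 45 in RF. Single loci had 44 to 237 counts in GM and 2 to 12 in RF, so that their fitted log2FC of 2.67 to 4.75 depend on the count edgeR adds. The locus with the smallest p, XLOC_021977 (chr3:138823794-138828966), had 2.28, 12.1, 15.2 and 3.04 CPM in GM and 0, 0.437, 1.33 and 0.181 CPM in RF (log2FC 4.00, SE 0.29, FDR = 2.1e-07). It was a DEG with each animal left out, with a log2FC of 3.63 to 4.62, and so were 2 others of the 8. The other 5 lost the call without animal 3 (FDR of 0.017 to 0.12) and without animal 4 (FDR of 0.011 to 0.017), and 3 of these 5 also without animal 2 (FDR of 0.013 to 0.026), where 1 of the 5 had too few counts to be tested. The remaining 2 of the 10 had a log2FC of 2.30 (SE 0.15, FDR = 0.039) and 3.43 (SE 0.22, FDR = 0.012). Loci so close together may be parts of 1 transcript and are not separate evidence. Outside the cluster, 10 of the other 39 DEG (25.6%) had no Ensembl gene, beside 25.4% of the loci tested, whereas the share over all 47 was 38.3%. Of all 47 DEG, 16 lay within 100 kb of another DEG, the 8 of the cluster included. The other 39 are therefore not all separate evidence either.

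**Figure D4:**
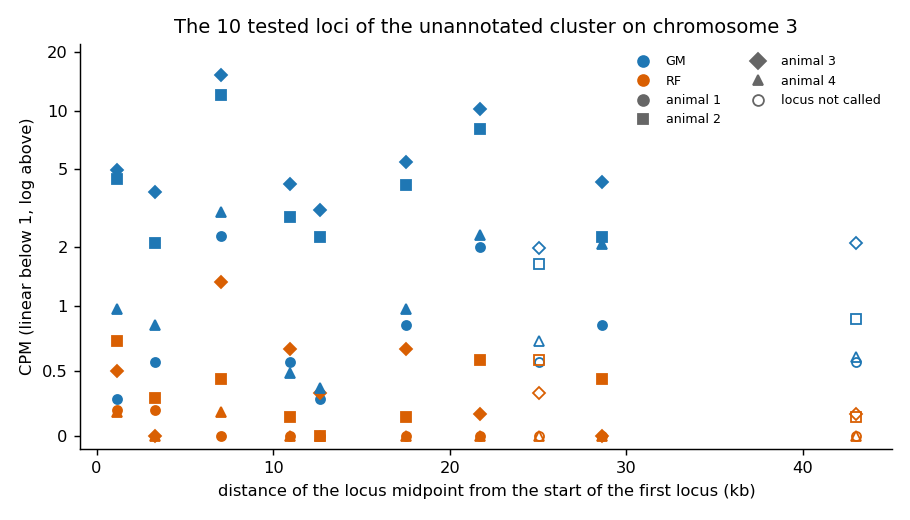
The x axis is the distance of each locus midpoint from the start of the first locus in kb and the y axis its CPM (linear up to 1, logarithmic above), for GM (blue) and RF (orange), with a marker shape per animal and open markers for the 2 loci that were not DEG. GM is above RF in every animal at each of the 10 loci, and animals 2 and 3 (squares and diamonds) are the highest in GM at each of them.

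Of the DEG without a name, the Ensembl locus with the smallest p was ENSOARG00000013116 (chr9:89664737-89675620). It had 278, 336, 293 and 255 CPM in GM and 81.4, 50.5, 69.7 and 94.0 CPM in RF, far from overlap (log2FC 1.99, SE 0.27, FDR = 2.1e-07). It stayed a DEG in all 12 alternative fits. Higher in RF were ENSOARG00000020376 (chr1:95558815-95685096), with 14.8, 8.96, 19 and 16.5 CPM in GM and 46.3, 31.4, 34.6 and 37.4 CPM in RF (log2FC -1.35, SE 0.21, FDR = 5.7e-05), and ENSOARG00000003815 (chr1:234263233-234289203). The latter had 3.98, 4.33, 2.35 and 3.40 CPM in GM and 10.4, 9.75, 8.48 and 7.62 CPM in RF (log2FC -1.40, SE 0.14, FDR = 1.4e-04), and its FDR was 0.015 without animal 3. Groups did not overlap in any of these 3 loci.

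At the position given for an unannotated transcript near MYLK4, a myosin light chain kinase, 1 unannotated locus was higher in RF, as was an Ensembl locus beside it. The Ensembl locus (chr20:49693089-49762526) had 4.84, 0.597, 4.71 and 4.50 CPM in GM and 22.5, 8.58, 22.5 and 11.4 CPM in RF (log2FC -2.12, SE 0.40, FDR = 5.6e-04). The unannotated locus begins 79 bases beyond its end (chr20:49762606-49765006) and had a log2FC of -1.65 (SE 0.42, FDR = 0.039). Of the loci at the position of MYBPC1, a myosin binding protein of slow fibers, the one with an Ensembl gene (chr3:170450235-170553298) passed the FDR but not the fold threshold (log2FC -0.86, SE 0.17, FDR = 0.0084). It had 767 ± 160 CPM in GM and 1375 ± 281 CPM in RF (SD, n = 4), and it shares its span with 3 unannotated loci, so that the name is not assigned.

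The remaining 7 muscles give the place of GM and RF among the 9 at these DEG. Among the 29 DEG higher in GM, RF was farther than GM from the median of the other 7 muscles in 17, and RF was the lowest of the 9 muscles in 14, whereas GM was the highest in 10. Among the 18 higher in RF, RF was farther from that median in 16 and the highest of the 9 in 9, and GM was the lowest in 4. These are orders of mean log2 CPM and carry no test. Loci chosen for a difference between GM and RF favor the ends of such an order by construction. Several of these DEG also lie close together, and the shares over all loci were not counted. Each gene with a name came from the study's contrasts of ST or SM with SS, so its place in SS is not independent evidence. The same holds for the cluster on chromosome 3, since the study listed its locus XLOC_021981 from the contrast of SM with SS. HOXD8 averaged 8.50 ± 1.59 CPM in GM and 1.42 ± 1.07 in RF (SD, n = 4), and between 7.39 and 14.0 in 6 of the other muscles, but 0.603 ± 0.627 in SS, a shoulder muscle of the forelimb. RF and SS did not differ beyond the threshold for HOXD8 (log2FC 1.24, RF over SS, FDR = 0.31), RIMS2 (log2FC 1.12, FDR = 0.47) or EYA1 (log2FC -0.024, FDR = 0.99), whereas CHI3L1 was higher in RF than in SS (log2FC 2.04, FDR = 0.0014). The other named HOX gene, HOXC10, did differ, with 3.21 ± 1.26 CPM in RF and 0 in SS (log2FC 7.18, RF over SS, FDR = 5.6e-08). Without counts in SS, that log2FC depends on the small count that edgeR adds. RF and SS were the lowest 2 of the 9 muscles in 15 of the 29 DEG higher in GM, 7 of which belong to the cluster on chromosome 3. They were the highest 2 in 3 of the 18 DEG higher in RF. The same shares over all loci were not counted. RF was below SS at ENSOARG00000013116, with 73.9 ± 18.5 CPM in RF and 248 ± 63.1 in SS (log2FC -1.72, RF over SS, FDR = 1.8e-06). MYOZ2 also set RF and SS apart, with 5.93 ± 1.28 CPM in RF and 53.9 ± 14.1 in SS, while only ST was below RF, at 2.71 ± 1.60 CPM. PVALB was at 7.29 ± 5.39 CPM in RF, 5.63 ± 7.84 in SS and 5.68 ± 2.58 in ST, and at most 0.662 CPM on average in GM and the other muscles. The cluster on chromosome 3 had the highest mean in LL, at 36.7 ± 23.5 CPM, followed by GM at 27.1 ± 21.2, and the lowest in RF and SS, at 1.80 ± 1.68 and 1.53 ± 1.23. In 8 of the 9 muscles animals 2 and 3 both had more of it than animals 1 and 4.

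**Figure D5:**
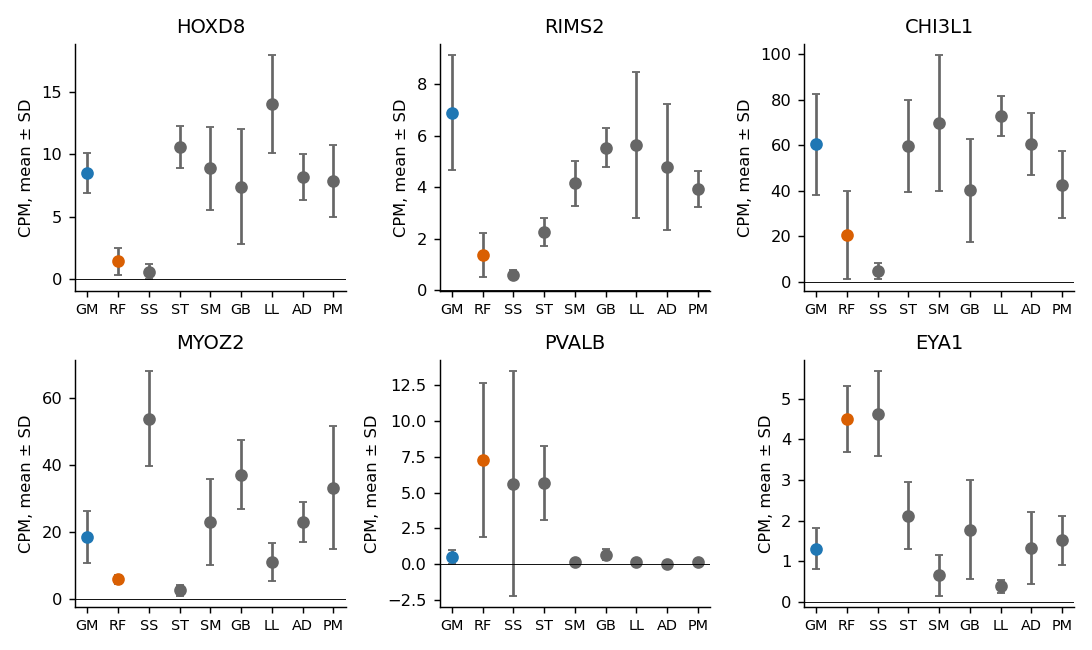
Each panel gives the mean and SD over 4 animals of the CPM of 1 named DEG in the 9 muscles, with GM in blue and RF in orange and the other 7 muscles in gray. RF and SS lie below the other muscles for HOXD8, RIMS2 and CHI3L1 and above them for EYA1, and RF is far below SS for MYOZ2. The study named these genes for differences of ST or SM from SS, so the place of SS is not independent evidence.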

How the data were processed

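The deposited values are whole-number read counts per locus without normalization, 1 file for each of 36 samples. The authors sequenced libraries of total RNA as paired-end Illumina reads, aligned them to Oar_v3.1 with TopHat2 (2.0.13), assembled transcripts with Cufflinks (2.2.1) merged with the Ensembl annotation, and counted reads per locus with HTSeq. The strand setting is not given in the sources used here, so reads of overlapping or antisense loci cannot be told apart. Muscle and animal were taken from the sample labels.

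Each of 31136 loci was used once, after 394 repeated entries of loci listed under several Ensembl genes were removed. Loci with few counts were removed with filterByExpr by muscle, leaving 12461. Counts were normalized by TMM, and edgeR (4.0.16, in R 4.3.3) was used to fit muscle and animal to the 36 samples, with the quasi-likelihood test and Benjamini-Hochberg adjustment over all loci. The study used a likelihood ratio test, which is among the alternatives, as is DESeq2 (1.42.0). CPM are on the TMM scale, and SE are those of 4 within-animal differences in log2 CPM with a prior count of 2, which compresses differences of loci with few counts. With a common biological coefficient of variation of 0.195, precision depends on each locus's own counts.

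The samples are paired by animal, and deviations from the muscle means correlated at 0.300, 0.169, 0.323 and 0.348 between GM and RF of the same animal. Between GM and RF of different animals the correlations were -0.242 to 0.129. Samples of a muscle differed beyond counting noise, at a chi-square of 7.57 to 21.5 per degree of freedom. Symbols were assigned where the position in the study's tables lay within exactly 1 Ensembl locus, which gave 30 names. The study gave these positions for genes that differed between ST and SS or between SM and SS. Named were all DEG with a symbol, the 2 DEG without one with the smallest p per direction, members of gene lists with small p, and HOX genes. The loci beside HOXD8, SIM2 and MYLK4, the cluster on chromosome 3 and the locus at MYBPC1 were chosen after their values were seen. The comparison and the lists were chosen with earlier results of these data known. The procedure was tested on simulated data. The count of slow sarcomere genes under each alternative was added after seeing the data. Alternatives were the likelihood ratio test, DESeq2, the 8 GM and RF samples alone, no animal term, RLE size factors, other filters and thresholds, library sizes without the 4 most counted loci, and each animal left out. The primers of MYOZ2 come from the study's supplement. Some items are not reported here.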

Additional observations from a re-analysis of the deposited data

Results flagged for a closer look

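Within each group of 4 values, a value far from the other 3 was looked for among the within-animal differences of the loci discussed and the totals of each muscle, a search that marks about 1 in 20 groups by chance. It marked 2 of 43 groups. The first was the total of the GM sample of animal 1, 4018634 counts, below the other 3 GM samples. The second was the difference of animal 3 at an unannotated locus beside the cluster on chromosome 3, XLOC_021985, which was 2.25 in log2 CPM (GM minus RF) and above the other 3 animals, and this locus was not a DEG.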

How the results depend on the processing

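The 47 DEG (29 higher in GM, 18 in RF) became 88 (58 and 30) with the likelihood ratio test, 170 (102 and 68) without a filter and 110 (76 and 34) at an FDR of 0.05, and 22 (13 and 9) with at least 10 counts in every sample, a filter that left 5151 loci and 18 of the 47. Pairing by animal mattered, since without animal as a block the DEG were 6 (3 and 3), and 5 of the 10 loci named by rule stayed DEG. With each animal left out they were 15 to 41 (10 to 25 higher in GM and 5 to 16 higher in RF), and 5 to 9 of the 10 named loci remained DEG. With at least 10 counts in every sample only 4 of these 10 could be tested, and all 4 were DEG. The 8 GM and RF samples alone gave 49 DEG, of which 28 were among the 47, DESeq2 gave 56, of which 45 were, and RLE size factors 46. Every one of the 47 that could be tested kept its direction in each of these 12 fits. With each animal left out, the log2FC of TNNI1 ranged from -0.21 to 0.56, below 0 without animals 1 and 2, and that of ATP2A2 from -0.35 to 0.34, above 0 without animal 4, none of them past a threshold. The cause was not tested for any of these shifts. Loci under the floor of 3 counts in RF limit the size of a fold change that this depth can show.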
